A study of Homo sapiens with 6 samples.

Results

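The genes described here are 8 components and regulators of the complement system, chosen by name: CD46, CD55, CD59, C3, CFB, C1R, C1S and SERPING1. Each has 1 row in a table of 20061 rows, and all 8 were found. They were measured in HEYA8, a long-established line of human ovarian cancer cells, which the labels assign to low grade serous carcinoma. The first group, shETS1, stably expressed a short hairpin RNA against the transcription factor ETS1 (3 samples), and the second, shLuciferase, a hairpin against luciferase, a firefly gene that human cells lack (3 samples). Both hairpins were carried by a lentiviral construct, all cells were grown with 5 microgram/ml puromycin to keep the construct, and no other treatment was applied. The number of hairpins and of cell clones behind each group is not given in the sources used here. The authors deposited 1 level per gene and group in FPKM, which is sequenced fragments scaled to the length of the transcript and the size of the library, so each level below is a group value with no spread between samples. Depth per sample is unknown. Separate cultures are not mentioned in the labels, and the authors' p-values may therefore measure technical spread.

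Complement is a cascade of plasma proteases that marks surfaces for removal and punctures membranes. C1r and C1s start the classical pathway, C3 is the protein on which all routes converge, and factor B, encoded by CFB, forms the C3-cleaving enzyme of the alternative route. Human cells shield themselves with membrane proteins that stop the cascade on their own surface, and carcinoma cells, ovarian ones included, commonly carry CD46, CD55 and CD59. CD46 helps factor I to cut C3b and C4b, CD55 takes apart the C3-cleaving enzymes, and CD59 blocks the assembly of the membrane attack complex. C1 inhibitor, encoded by SERPING1, is a secreted serpin that inactivates C1r and C1s.

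The targeted gene was checked first. ETS1 stood at 17.9 FPKM in shETS1 and 41.4 FPKM in shLuciferase. Among listed markers of the cell type, KRT8 and KRT18, keratins of simple epithelia, stood at 1288 and 1498 FPKM in shETS1 and at 1913 and 2044 FPKM in shLuciferase. PAX8, a marker of the ovarian carcinoma lineage, was at 76.8 FPKM in shETS1 and 79.7 FPKM in shLuciferase. Of the same lists, MSLN was at 26.5 FPKM in shETS1 and 17.9 FPKM in shLuciferase (p = 0.0309 and q = 0.597 in the authors' deposited table). SOX17 was at 2.38 FPKM in shETS1 and 1.15 FPKM in shLuciferase (p = 0.00145 and q = 0.110 in the authors' deposited table). WT1, KRT19 and EPCAM were at 3.13, 3.80 and 1.82 FPKM in shETS1 and at 3.58, 3.55 and 1.71 FPKM in shLuciferase. None of these tested markers was called. MUC16 and CDH1 were listed at 0 in shETS1 and below 0.01 FPKM in shLuciferase. A listed 0 need not mean that a gene is silent, because GAPDH, CD99, SLC25A6 and VAMP7, which most cells express, were also listed at 0 in both groups. GAPDH was given the status HIDATA, whereas CD99, SLC25A6 and VAMP7 were marked as not tested, as were MUC16 and CDH1. Why these genes were listed at 0 was not examined, nor whether the reason extends to other zeros.

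CD46 was the complement member with the clearest difference: its level in shETS1 was 2.15 times that in shLuciferase. CD46 (chromosome 1, 207925383 to 207968861, hg19) reached 23.0 FPKM in shETS1, against 10.7 FPKM in shLuciferase. For CD46 the authors' deposited table lists a log2 fold change of 1.10, a p-value of 5e-05 and a q-value of 0.00964. That p-value is the smallest the table holds, and many genes share it with the same q-value, ETS1 among them. Neither value therefore ranks CD46 among the genes that share them. Genes count as called here where the deposited q-value does not exceed 0.05. CD46 was called higher, and among the 65 genes called higher its log2 fold change ranked 45. In level, CD46 stood above 71.6% of the tested rows in shETS1 and above 54.99% in shLuciferase. In bulk RNA of this kind, more RNA per cell and more cells with high CD46 cannot be told apart. No other row of the table overlapped its locus.

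CD46 was the only call among the 8 members. Of the 8, 5 had been tested by the authors (CD46, CD55, CD59, C3 and C1R), and 3 were marked as not tested (CFB, C1S and SERPING1). Over all 11952 tested rows, 0.812% were called, and 0.544% were called higher. The members were chosen with the results of this comparison known, so the count of 1 in 5 is a description and nothing is read from it. The median log2 ratio of the 5 tested members was 0.58, beside 0.02 for all tested rows.

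**Figure D1:**
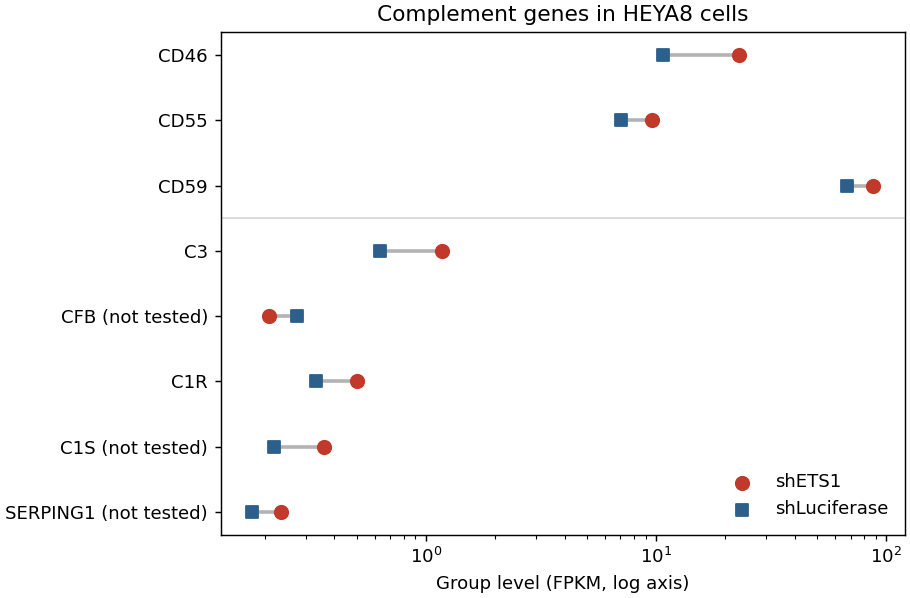
Level in FPKM (horizontal log axis) of the 8 complement genes in shETS1 (red circles) and shLuciferase (blue squares), 1 group value each; the line under CD59 parts the membrane regulators from the secreted proteins. CD46 lies at 23.0 FPKM in shETS1 and 10.7 FPKM in shLuciferase, and CFB is the member with the lower value in shETS1.

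The stretches upstream of the genes for the membrane regulators are shown because ETS factors recognise a short core sequence and ETS1 was the gene targeted. Each is the 250 bases before the RefSeq transcription start farthest upstream, on GRCh38.p14, written 5′ to 3′ on the gene's strand. The CD46 stretch lies at chr1:207751788-207752037 on the plus strand, CD55 at chr1:207321428-207321677 on the plus strand and CD59 at chr11:33736480-33736729 on the minus strand. Capitals mark matches, on either strand, to CCGGAA (an ETS core with its flank) or TTCNNNGAA (the GAS element bound by STAT factors). A further search, for the NF-kappaB consensus, found no match in these stretches. The ETS core without its flank was not searched, so any core with another flank is left unmarked.
CD46: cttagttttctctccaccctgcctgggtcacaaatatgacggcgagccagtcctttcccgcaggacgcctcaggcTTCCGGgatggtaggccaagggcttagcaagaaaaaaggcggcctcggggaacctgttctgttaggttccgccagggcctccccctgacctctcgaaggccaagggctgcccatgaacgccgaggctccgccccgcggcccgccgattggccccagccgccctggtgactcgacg
CD55: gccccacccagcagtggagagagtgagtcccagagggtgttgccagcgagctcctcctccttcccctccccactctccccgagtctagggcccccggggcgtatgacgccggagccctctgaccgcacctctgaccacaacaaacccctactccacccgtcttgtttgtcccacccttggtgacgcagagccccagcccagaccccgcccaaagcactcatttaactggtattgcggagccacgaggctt
CD59: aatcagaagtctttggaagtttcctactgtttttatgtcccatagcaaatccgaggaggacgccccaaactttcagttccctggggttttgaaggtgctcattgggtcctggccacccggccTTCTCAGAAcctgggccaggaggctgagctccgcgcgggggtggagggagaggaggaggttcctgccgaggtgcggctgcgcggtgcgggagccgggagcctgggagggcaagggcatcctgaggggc

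The CD46 stretch holds 1 match to CCGGAA, read on the opposite strand as TTCCGG, from 175 to 170 bases before the start. The CD55 stretch holds none of the searched sequences, and that of CD59 has 1 GAS match, TTCTCAGAA, from 128 to 120 bases before the start. RefSeq stretches were found for 5 of the 8 members, 10 stretches in all since some genes have several starts. CFB holds a match to each of the 3 motifs, and in it the ETS and GAS matches overlap within TTCCGGGAA. Of the C1R stretches, that of the downstream start holds a GAS match. In all, 3 of the 10 stretches hold CCGGAA, in CD46 (before both of its starts) and CFB. TTCNNNGAA is held by 4 of the 10, in CD59, CFB and C1R, and the NF-kappaB consensus by 1, in CFB. The CD46 stretches overlap and hold the same match, so this match is counted more than once. The same holds for the GAS match of CD59, which lies in overlapping stretches. Over all 35116 stretches of 250 bases in the RefSeq table, 14.5% hold CCGGAA, 6.57% TTCNNNGAA and 9.96% the NF-kappaB consensus. A match describes the letters and is not a binding site.

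CD55 and CD59, the other membrane regulators, had values above those of shLuciferase but were not called. Both are held in the membrane by a glycosylphosphatidylinositol (GPI) anchor, whereas CD46 spans it. CD55 (chromosome 1, 207494817 to 207534311, hg19) was at 9.62 FPKM in shETS1 and 7.01 FPKM in shLuciferase. Its ratio of 1.37 has a log2 fold change of 0.46, p = 0.0696 and q = 0.821 in the authors' deposited table. CD59 (chromosome 11, 33724556 to 33758025, hg19) was at 87.9 FPKM in shETS1 and 67.3 FPKM in shLuciferase. Its ratio of 1.31 has a log2 fold change of 0.39, p = 0.128 and q = 0.949 in the authors' deposited table. A q-value above the threshold does not show that the levels of CD55 and CD59 were equal.

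The order of the 3 membrane regulators by level was CD59, CD46, CD55 in either group. CD59 stood above 90.6% of tested rows in shETS1 and above 87.7% in shLuciferase, while CD55 stood above 52.3% in shETS1 and above 46.0% in shLuciferase. The summed level of the 3 was 121 FPKM in shETS1 and 85.1 FPKM in shLuciferase. CD46 made up 19.1% of that sum in shETS1 and 12.6% in shLuciferase. Since FPKM is scaled to transcript length, these levels can be set side by side between genes, though only roughly. Other differences between the transcripts, such as base composition, were not accounted for in the sum and shares.

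The GPI anchor that CD55 and CD59 need is built and attached by a set of enzymes, most of them named PIG. Of 28 listed genes of this set, 27 were tested; none was called higher and 1, PIGS, was called lower (0.268% of all tested rows were called lower). PIGS, a subunit of the transamidase that attaches the anchor, fell to 19.5 FPKM in shETS1, against 37.1 FPKM in shLuciferase. The authors' deposited table lists a log2 fold change of -0.93 for it, with q = 0.00964. The median log2 ratio of the 27 tested genes was 0.14, beside 0.02 for all tested rows. Of the 27, 20 had a ratio above 0, against 53.1% of all tested rows. The base composition of transcripts was not taken into account for this list.

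**Figure D2:**
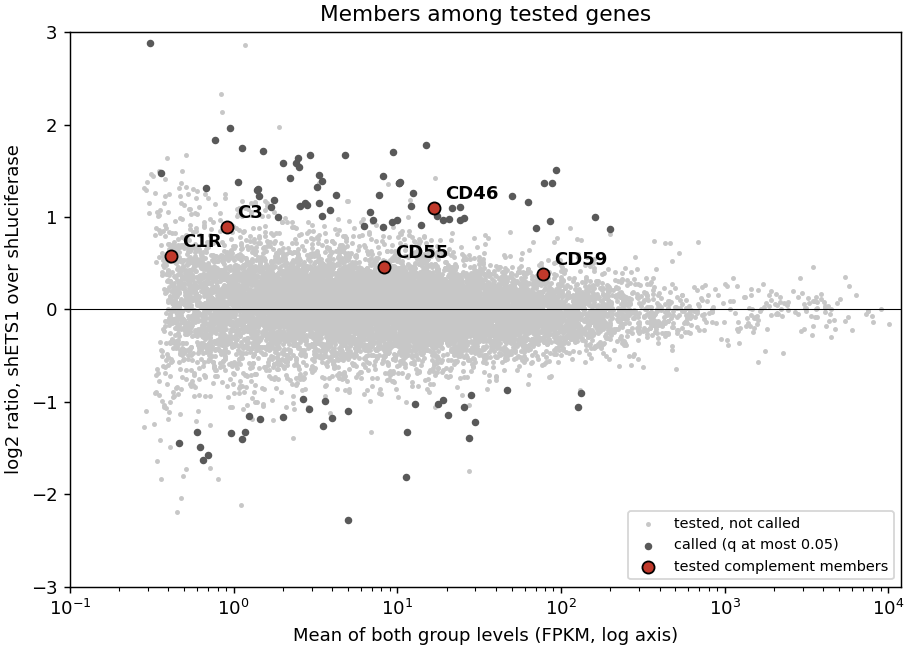
Log2 ratio of shETS1 over shLuciferase (vertical axis) against the mean of both group levels in FPKM (horizontal log axis) for tested genes. Grey points are genes not called, dark points called genes and red points the 5 tested complement members; 3 points lie outside the axes. CD46 at 1.10 lies among the called genes, while CD55 at 0.46 and CD59 at 0.39 lie among those not called.

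C3 had the next largest ratio of the tested members but a low level. C3 (chromosome 19, 6677846 to 6720662, hg19) was at 1.18 FPKM in shETS1 and 0.634 FPKM in shLuciferase, a ratio of 1.86. It was not called: the authors' deposited table lists a log2 fold change of 0.89, p = 0.01 and q = 0.339. Of all tested rows, 353 had a p-value at or below that of C3. C3 and CD46 were the members with an unadjusted p under 0.05, a mark that 6.94% of all tested rows passed, 3.9% with a higher level in shETS1 and 3.04% with a lower one. Adding 1 FPKM to each group level first gave log2 ratios of 0.41 for C3 and 1.04 for CD46.

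The proteases of the C1 complex had levels below 1 FPKM in both groups. C1R (chromosome 12, 7187515 to 7245043, hg19) was at 0.501 FPKM in shETS1 and 0.334 FPKM in shLuciferase (q = 0.949 in the authors' deposited table). C1S, whose product is activated by C1r, was at 0.361 FPKM in shETS1 and 0.218 FPKM in shLuciferase and was not tested. The deposited locus of C1S (chromosome 12, 7085347 to 7178335, hg19) is shared with LPCAT3, a lipid acyltransferase gene at 26.1 FPKM in shETS1 and 30.6 FPKM in shLuciferase. The protocol mentions nothing that keeps the strand of the RNA, and the reads assigned to C1S are uncertain. C1RL, a C1r-like gene beside C1R, was at 2.31 FPKM in shETS1 and 2.51 FPKM in shLuciferase.

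Their inhibitor and the alternative pathway protease were also below 1 FPKM in both groups. SERPING1 (chromosome 11, 57365027 to 57382326, hg19) was at 0.235 FPKM in shETS1 and 0.175 FPKM in shLuciferase. CFB was at 0.208 FPKM in shETS1 and 0.276 FPKM in shLuciferase, the only member with a log2 ratio below 0, at -0.41. Neither gene was tested. CFB is placed on an alternative haplotype contig of chromosome 6 (3228026 to 3252571 on that contig, hg19), at a locus it shares with C2, so its reads may be split with the main chromosome. Summed, the 5 genes of secreted proteins (C3, CFB, C1R, C1S and SERPING1) came to 2.48 FPKM in shETS1 and 1.64 FPKM in shLuciferase. The 3 membrane regulators together were 48.6 times as high as that sum in shETS1 and 51.9 times as high in shLuciferase.

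The rest of the pathway was examined through 53 other complement genes, all of which had a row. Of these, 10 had been tested, and none was called in either direction in the authors' deposited table; 1, CFP, had an unadjusted p under 0.05. Over all tested rows, 0.812% were called. The median log2 ratio of the 10 was -0.01, with 5 above 0 and 5 below, beside 0.02 for all tested rows. The 43 genes without a test reached at most 0.347 FPKM in either group, and 17 genes were listed at 0 in both.

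Among the recognition proteins, C1QA, C1QB, C1QC, MBL2, FCN1 and FCN2 were listed at 0 in both groups. COLEC12, a membrane collectin, was the tested gene of this class, at 4.92 FPKM in shETS1 and 4.25 FPKM in shLuciferase. Of the proteases and pathway components, CFD, which encodes the factor D that cleaves factor B, was at 3.95 FPKM in shETS1 and 4.55 FPKM in shLuciferase. CFP, which encodes properdin, the stabiliser of the alternative pathway enzyme, was at 0.234 FPKM in shETS1 and 0.434 FPKM in shLuciferase (p = 0.0463 and q = 0.695 in the authors' deposited table). None of the 6 genes of the terminal pathway was tested, and their levels summed to 0.281 FPKM in shETS1 and 0.324 FPKM in shLuciferase.

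Most genes of soluble regulators were not tested, CFI among them. CFI, the protease for which CD46 is a cofactor, was at 0.0520 FPKM in shETS1 and 0.0168 FPKM in shLuciferase. CLU, which encodes clusterin, an inhibitor of the terminal complex, was at 2.29 FPKM in shETS1 and 1.92 FPKM in shLuciferase. C1QBP, a mostly mitochondrial protein that can bind C1q, was the most abundant gene on the list, at 205 FPKM in shETS1 and 203 FPKM in shLuciferase, at a locus it shares with NUP88 and RPAIN. Of further membrane regulators, THBD (thrombomodulin) was at 5.998 FPKM in shETS1 and 6.12 FPKM in shLuciferase and SUSD4 at 0.532 FPKM in shETS1 and 0.339 FPKM in shLuciferase.

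Integrin genes were the tested complement receptors. ITGB2, the beta chain shared by the C3 receptors CR3 and CR4, was at 6.31 FPKM in shETS1 and 7.90 FPKM in shLuciferase (q = 1.00 in the authors' deposited table). ITGAX, the alpha chain of CR4, was at 2.20 FPKM in shETS1 and 1.34 FPKM in shLuciferase (q = 0.845 in the authors' deposited table). C3AR1, a receptor for the C3a fragment, was at 0.221 FPKM in shETS1 and 0.347 FPKM in shLuciferase and was not tested.

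**Figure D3:**
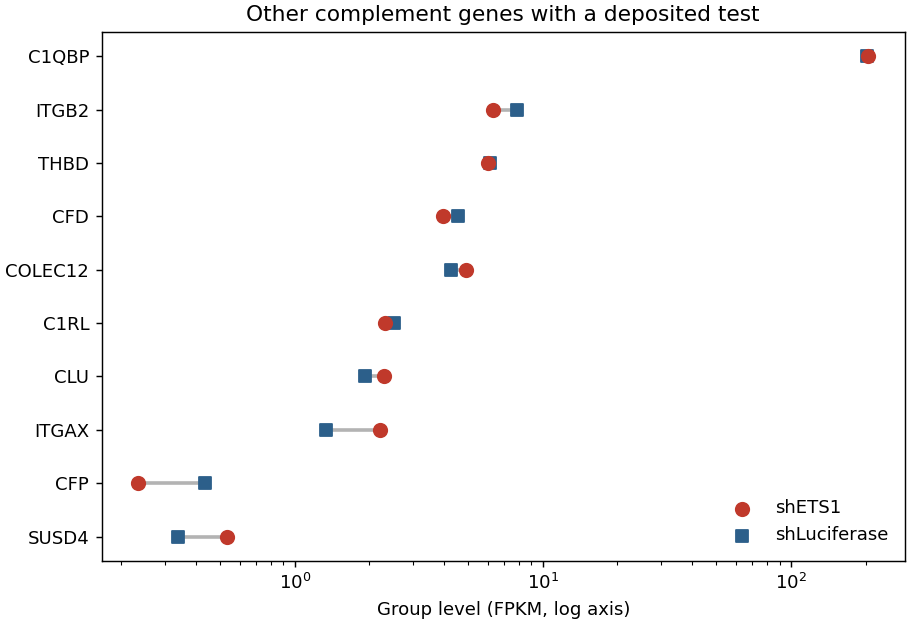
Level in FPKM (horizontal log axis) in shETS1 (red circles) and shLuciferase (blue squares) of the 10 other complement genes that the authors tested. None was called; CFP, at 0.234 FPKM in shETS1 and 0.434 FPKM in shLuciferase, is the gene with an unadjusted p under 0.05.

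CD46 and CD55 belong to the regulators of complement activation, a gene cluster on the long arm of chromosome 1. Within 1 Mb of CD46 the table holds 19 other rows, of which 5 were tested and none was called. With 0.812% of all tested rows called, nothing is read from the lack of a call among these 5. Their log2 ratios ran from -1.84 for C1orf116 to 0.46 for CD55, 2 above 0 and 3 below. PLXNA2, a semaphorin receptor gene on the far side of CD46 from CD55, was at 14.07 FPKM in shETS1 and 14.10 FPKM in shLuciferase. C1orf116 was at 0.158 FPKM in shETS1 and 0.565 FPKM in shLuciferase (q = 0.202 in the authors' deposited table). CR1, CR2, CR1L, C4BPA and C4BPB, cluster genes between or beside CD46 and CD55, were all below 0.1 FPKM in both groups.

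**Figure D4:**
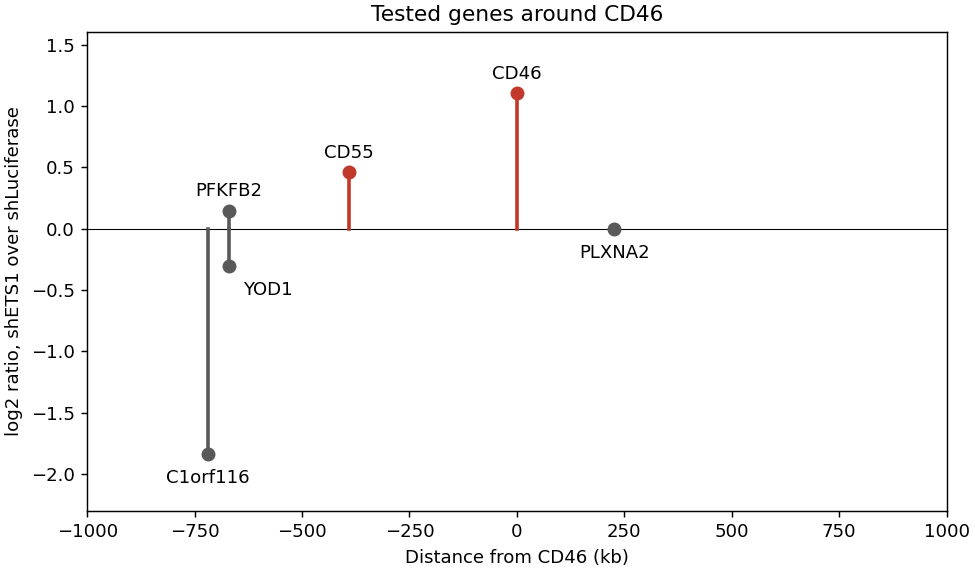
Log2 ratio of shETS1 over shLuciferase (vertical axis) of tested genes within 1 Mb of CD46, by distance in kb between the nearest ends of the loci (horizontal axis). Red marks CD46 and CD55 and dark grey the other genes. CD46 at 1.10 is the call, and PLXNA2 lies at 0.00.

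Fold changes in this table moved with the base composition of transcripts, so the members' own values are given. The CD46 transcript with the longest coding sequence in GENCODE 29 is 38.3% G or C, against a median of 49.9% over 9681 expressed genes (a mean of at least 1 FPKM). Expressed genes within 1 percentage point of CD46 in GC content numbered 613 and had a median log2 ratio of 0.22; 4 of them, CD46 included, reached the ratio of CD46. With a cubic trend on GC content removed, the log2 ratio of CD46 was 0.89, against 1.10 before. CD55 and CD59 had GC contents of 45.6% and 45.5%, and their log2 ratios were 0.40 and 0.33 without the trend. C3 had 56.5%, on the other side of the median, and a log2 ratio of 0.99 without the trend. The part of base composition in the difference of CD46 was not tested further.

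**Figure D5:**
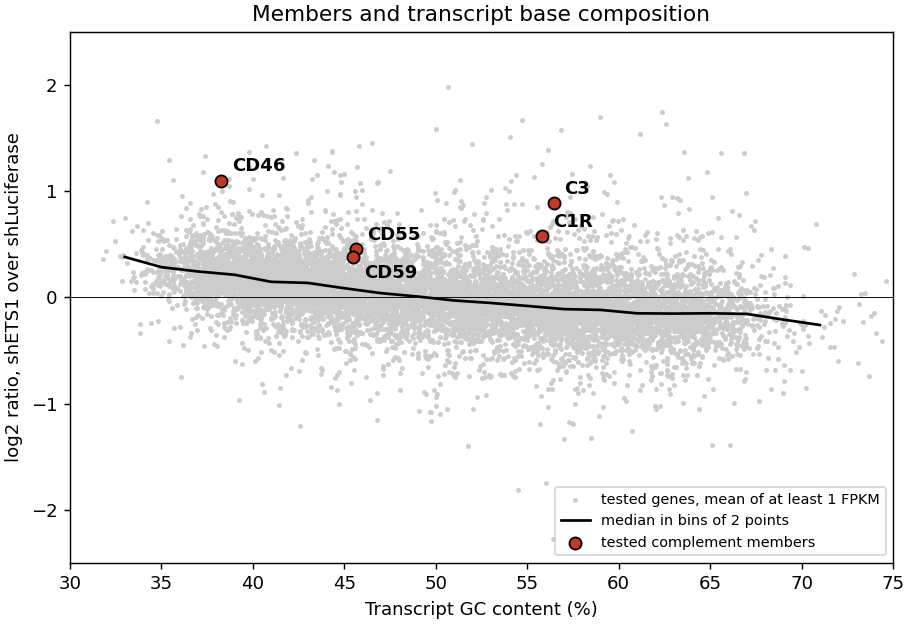
Log2 ratio of shETS1 over shLuciferase (vertical axis) against transcript GC content in percent (horizontal axis) for tested genes with a mean of at least 1 FPKM (grey); 3 points lie outside the axes. The black line is the median in bins of 2 percentage points with at least 20 genes, and red points are the 5 tested complement members, of which C3 and C1R have a mean below 1 FPKM. CD46 lies at 38.3% GC and 1.10, above the line.

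Other cell types that make complement proteins were checked through their markers, whose part in the members' values was not tested. Of 8 hepatocyte markers the summed level was 2.55 FPKM in shETS1 and 1.65 FPKM in shLuciferase. TTR was listed at 0 in both groups, and ALB was at 0.05003 FPKM in shETS1 and 0.0166 FPKM in shLuciferase. SERPINA1 held most of the sum, at 2.00 FPKM in shETS1 and 0.995 FPKM in shLuciferase. It was not called (p = 0.0023 and q = 0.142 in the authors' deposited table). Of 7 leukocyte markers the sum was 1.67 FPKM in shETS1 and 1.77 FPKM in shLuciferase, with PTPRC, TYROBP and CD3E listed at 0 in both. Of 5 fibroblast markers the sum was 3.81 FPKM in shETS1 and 1.31 FPKM in shLuciferase; DCN and COL3A1 were listed at 0 in both, and COL1A1, a called gene, held nearly all of it. Of 4 endothelial markers with a row the sum was 5.53 FPKM in shETS1 and 18.2 FPKM in shLuciferase, nearly all from CDH5, a called gene with the lower level in shETS1.

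The genes nearest to CD46 in both group levels were STARD3NL, CXCL2 and CAV2, by the distance between log2 FPKM values over the 2 groups. STARD3NL was at 23.5 FPKM in shETS1 and 10.9 FPKM in shLuciferase, 0.04 log2 units from CD46, and was called (q = 0.00964 in the authors' deposited table). CXCL2 was at 23.3 FPKM in shETS1 and 11.6 FPKM in shLuciferase, 0.12 units away, and was also called (q = 0.0306 in the authors' deposited table). CAV2 was at 24.8 FPKM in shETS1 and 9.25 FPKM in shLuciferase, 0.24 units away, and was not called (q = 0.910 in the authors' deposited table). With 2 values per gene, such closeness describes these levels alone.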

How the data were processed

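Polyadenylated RNA of 3 shETS1 and 3 shLuciferase samples was sequenced. The submitters' processing notes name Cufflinks 2.1.1, TopHat2 2.0.7, SAMtools 0.1.18, Bowtie2 2.0.6 and the build hg19; annotation and scaling were not given in the sources used here. The authors deposited, per the file headers, a Cuffdiff-style table with 1 FPKM value per gene and group, a log2 fold change, a p-value, a q-value and an unused test score. The deposited q-values match a Benjamini-Hochberg adjustment over the 11952 tested rows within 5.16e-07. Spreadsheet error text replaced 629 fold changes, none of a member. The members' deposited log2 fold changes equal the log2 ratio of their FPKM values within 0.001.

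With no values per sample, no count-based or limma fit could be made as designed, and no error or interval could be given; depth is unknown. Members and lists were chosen with earlier results of these data known. The text names the 8 members, ETS1, other complement genes of at least 1 FPKM in either group, called GPI anchor genes, the 3 genes nearest CD46 and listed markers and neighbours; untested complement genes, CFP, SUSD4, C1orf116 and PLXNA2 were named after their values were seen. GC content came from GENCODE 29 transcripts by gene symbol (90.7% of 10676 expressed genes), promoters from RefSeq (GRCh38.p14). The adjustment, GC trend and motif search were tested on simulated data. Python 3.11.15, pandas 2.3.3, NumPy 2.4.6 and matplotlib 3.10.9 were used. A listed gene is not reported here. Alternatives varied the q-value threshold, level filter, pseudocount, centring and GC trend.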

Additional observations from a re-analysis of the deposited data

How the results depend on the processing

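CD46 stayed the member called at a q-value of 0.1, at 0.01, and with p-values adjusted again over rows of at least 1 or 5 FPKM. PIGS stayed the GPI anchor gene called, and no other complement gene was called, under the same settings. A looser threshold cannot remove a call, and CD46 and PIGS both hold the smallest p-value in the authors' deposited table, 5e-05. All genes at that p-value share 1 q-value under each setting, so these settings add no separate support for either call. The median log2 ratio of the 5 tested members, 0.58, was 0.41 with 1 FPKM added to both levels, 0.47 with 0.1 FPKM added, and 0.46 over the 3 members that average 1 FPKM or more; of the low members, C3 passes 1 FPKM in shETS1 alone. Of 35 values of single members under the alternatives, 12 moved by more than 0.1 log2 units and 0 changed sign. CD46 with the GC trend removed (0.89, against 1.10) was among the 12 that moved. Adding the same FPKM to both levels cannot change a sign, and adjusting p-values again leaves the log2 ratio as it was. The values of C3, C1R, C1S, CFB and SERPING1 shrank with 1 FPKM added, as the pseudocount exceeds most of their levels. The median of the other complement genes, -0.01, was 0.05 with the GC trend removed. No paired analysis was possible because the table holds 1 value per gene and group; leaving out replicates was not run for the same reason. FPKM values carry no read number, so no detection limit can be set for members near 0.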

Other observations

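Size of change and level alone did not set the calls in the authors' deposited table. Of 7330 tested rows with a mean of at least 5 FPKM, 21 had a log2 ratio at or above the 1.10 of CD46, CD46 included. Of these, 17 were called and 4, CAV2 among them, were not.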
